A study of Caenorhabditis elegans with 3 samples.

Results

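The abu and pqn genes of the nematode Caenorhabditis elegans were taken by name, as every gene whose single symbol in the array's annotation begins with abu- or pqn-. The rule gave 58 genes of the 17118 on the array, 11 of them abu and 47 pqn, and all 58 symbols are still in use in RefSeq, which lists 15 abu and 56 pqn genes. Whole wild-type young adult hermaphrodites, 3 days old and grown on Escherichia coli OP50, were kept unfed for 24 h at 20 °C in K-medium, a solution of potassium and sodium chloride. The control animals were held without a particle and the other animals were exposed to GO or to rGO, at a concentration that the labels do not state. GO and rGO, left as abbreviations in the labels, are graphene oxide and reduced graphene oxide. Each condition has 1 Affymetrix array, so there is no spread between replicates and no test, and "higher" and "lower" below describe single arrays. All groups were fasted, and no fed group was analysed here.

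The pharynx, the feeding organ of the worm, is lined by its own chitin-containing cuticle, which is shed and rebuilt at each larval molt. Many abu genes, together with related pqn genes, encode secreted proteins of this lining, and their transcripts rise and fall with the molting cycle in larvae. The name abu stands for "activated in blocked unfolded protein response", after their induction when the endoplasmic reticulum stress pathway was blocked. The name pqn marks a prion-like domain rich in glutamine and asparagine. It joins genes with no common function, so only some pqn genes belong to the pharyngeal lining and the set is described here by name, not as one structure. Whole animals were measured, so fewer pharyngeal cells and less RNA per cell cannot be told apart.

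Values are log2 expression values, averaged over the probe sets of a gene, and 1 unit is a 2-fold difference. A value below 6.24, the top value among 8 probe sets that have no target in worm RNA, was treated as not above background, and folds against such a value are given as "at least". By this limit and the gene average, 42 members were above background on all 3 arrays, 2 on some arrays and 14 on none. A gene was counted as higher or lower at a difference of at least 1 when the brighter of the arrays compared reached 6.79, the median over all genes and arrays. Levels of different genes are not set against each other, because probes differ in brightness. The array medians were 6.87 (control), 6.92 (GO) and 6.86 (rGO). Bacterial poly-A transcripts, which are spiked into the RNA, read lower with GO (median -1.55) and with rGO (median -0.98) than in the control in 24 of 24 probe sets. Hybridisation controls, which are added after labelling, also read lower in 18 of 18 probe sets with GO (median -0.62) and with rGO (median -0.93), and 16 of the 18 were higher with GO than with rGO (median 0.26). Over 8 pairs of worm control probe sets, the 3′ end exceeded the 5′ end by a median of 1.88 (control), 2.57 (GO) and 1.16 (rGO). The part of these control differences in the results below was not tested.

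Among the abu genes, abu-13 and abu-14 stood higher on the GO array than on both other arrays, whereas abu-6, abu-11 and abu-15 stood lower on the rGO array than on the control array. The 7 abu genes above background on all 3 arrays shared 1 order: each was higher on the GO array than on the rGO array. The control array was the array that moved between them, lying near the rGO array for some genes and above the GO array for others.

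The clearest separate GO value belonged to abu-13, with 7.53 (control), 9.40 (GO) and 7.22 (rGO). It was 3.66-fold higher with GO than in the control (+1.87) and 4.54-fold higher than with rGO (+2.18), while rGO and control differed by -0.31. The gene abu-14 was at 10.11, 11.49 and 10.03 on the control, GO and rGO arrays. Its GO value was 2.60-fold above the control (+1.38) and 2.75-fold above rGO (+1.46), and rGO against the control averaged -0.08. Both of its probe sets carried the difference, at +1.56 and +1.19 against the control and at +1.34 and +1.58 against rGO, but for rGO against the control they disagreed in sign (+0.22 and -0.38). For both genes the GO array alone was high.

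The gene abu-12 was at 6.10 (control), 7.15 (GO) and 6.35 (rGO). Its difference of 1.05 between GO and control was counted, but the control value was below background, so the supported fold is at least 1.87. The gene abu-8 was at 10.51, 11.22 and 10.46, with GO 1.63-fold above the control (+0.71) and 1.69-fold above rGO (+0.76). Its 2 probe sets gave +0.70 and +0.71 for GO against control. The GO array was again the high one, below the size that was counted.

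A second group of abu genes had its highest value on the control array. The gene abu-15 was at 10.51 on the control, 9.54 on the GO and 9.06 on the rGO array, which made rGO 2.72-fold lower than the control (-1.44). Its GO value lay just outside the limit (-0.97). The gene abu-11 was at 10.46, 10.08 and 9.28 and was 2.26-fold lower with rGO (-1.18). This gene is known for extending lifespan when overexpressed. The gene abu-6 was at 10.14, 9.52 and 9.01 and was 2.19-fold lower with rGO (-1.13). In all 3 the GO value lay between the control and the rGO value. In the RefSeq order abu-15 and abu-6 are neighbouring protein-coding genes on chromosome V, and both are read only by probe sets that share probes with other transcripts. The same holds for abu-8, abu-11, abu-12 and abu-13, so the values of these 6 genes are not fully separate measurements. The gene abu-10 followed the same order at 7.34, 7.17 and 6.61 and was under 2-fold in every comparison. Its probe sets read very different levels, 9.50 and 5.18 on the control array, and the brighter one gave +0.30 for GO and -0.52 for rGO against the control.

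The remaining abu genes averaged below background. The genes abu-2 (4.27 on every array) and abu-3 (5.16 on every array) had identical values on the 3 arrays, and the cause of such ties was not tested. The gene abu-4 averaged 5.25, 4.92 and 4.93 over 3 probe sets. Of these, 1 that shares probes with other transcripts was above background, at 7.18 (control), 6.28 (GO) and 6.28 (rGO), or -0.90 with both exposures, and the other 2 were below it.

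**Figure D1:**
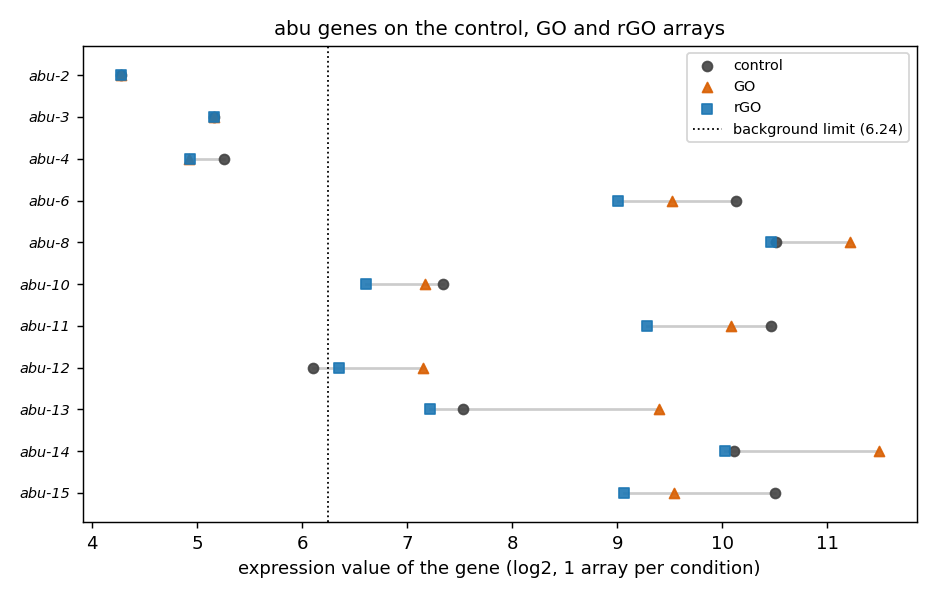
Log2 expression value (horizontal axis) of each of the 11 abu genes on the control, GO and rGO arrays, with 1 array per condition and no error bars. The dotted line is the background limit of 6.24. The GO triangle lies to the right of the rGO square in all 8 genes that rise above that limit, from +0.47 (abu-15) to +2.18 (abu-13).

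Of the 11 abu genes, 8 were above the floor for GO against control. Of these, 3 were counted as higher with GO (abu-12, abu-13 and abu-14) and none as lower. Of 9303 genes above the floor, 8.43% were counted as higher and 9.76% as lower in that comparison. The gene abu-12 reached the floor through the GO array alone, and its supported fold is at least 1.87. With the mean of the 3 arrays at the floor, 2 of 7 abu genes were higher, beside 620 of 8612 genes. With rGO, none of the 7 abu genes above the floor was higher and 3 were lower, against 7.99% higher and 9.88% lower of 9097 genes. Between the exposures, 2 of the 8 above the floor (abu-13 and abu-14) were at least 2-fold higher with GO and none with rGO, against 5.59% and 3.73% of 8978 genes. By sign alone, 8 of the 11 were higher with GO than with rGO, 2 were equal and 1 was lower by 0.01. Among all genes above the floor 41.5% were higher with GO, and with no floor 6760 of 17118 were. The median difference between GO and rGO was 0.56 over the 11 abu genes and 0 over all genes. The 7 abu genes whose mean over the 3 arrays reached the floor were all higher with GO than with rGO (median 0.76) and all lower with rGO than in the control (median -0.73), although abu-8 (-0.05) and abu-14 (-0.08) were averages of probe sets of opposite sign. Of all genes above the floor, 40.2% were lower with rGO than in the control. With no floor, 8 of the 11 abu genes were lower with rGO (median -0.31), beside 6438 of 17118 genes. The gene abu-12 was higher (+0.25), from a control value below background. Without probe sets that share probes only abu-10 and abu-14 can be read above the floor, and the counts become 1 higher with GO against the control and 0 lower with rGO.

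The pqn genes held the largest differences of the whole set, and these ran in both directions. Against the control, pqn-13, pqn-26, pqn-71, pqn-73 and pqn-75 were at least 2-fold higher with GO, and pqn-22, pqn-24, pqn-31 and pqn-54 at least 2-fold lower. With rGO, pqn-71, pqn-73, pqn-75 and pqn-89 were higher and pqn-22, pqn-24 and pqn-54 lower. Of the 47 pqn genes, 35 were above the floor in each of these 2 comparisons. The counts of 5 higher and 4 lower of 35 for GO stand beside 8.43% and 9.76% of all genes above the floor. Those of 4 higher and 3 lower of 35 for rGO stand beside 7.99% and 9.88%. The medians over the 47 pqn genes were 0.05 for GO and 0.04 for rGO, and 0 over all genes in both comparisons. Between the exposures, 4 of the 34 pqn genes above the floor were counted as higher with GO and 3 as lower, beside 5.59% and 3.73% of all genes above the floor.

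The gene pqn-73 was at 6.24 (control), 10.08 (GO) and 7.60 (rGO). This was 14.3-fold higher with GO (+3.83) and 2.56-fold higher with rGO (+1.35), from a control value at the background limit, and its single probe set shares probes with other transcripts. The gene pqn-71 was at 7.003, 10.52 and 9.43, or 11.5-fold higher with GO (+3.52) and 5.38-fold higher with rGO (+2.43). The control array was the low one in both genes and the GO array the high one.

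The gene pqn-13 was at 7.14 (control), 10.26 (GO) and 7.92 (rGO). It was 8.73-fold higher with GO than in the control (+3.13) and 5.09-fold higher than with rGO (+2.35), whereas rGO against the control was under 2-fold (+0.78). Its 2 probe sets gave +3.37 and +2.88 against the control and +2.43 and +2.26 against rGO. The gene pqn-26 was at 6.79, 8.74 and 7.43, which gave 3.87-fold with GO (+1.95) and 1.56-fold with rGO (+0.64). In pqn-13, pqn-26, pqn-71 and pqn-73 the order of the arrays was control, rGO, GO from low to high.

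The gene pqn-75 had another order. This gene is expressed in the gland cells of the pharynx, which secrete into its lumen. It was at 8.79 (control), 9.84 (GO) and 11.02 (rGO). It was 4.68-fold higher with rGO (+2.23), 2.07-fold higher with GO (+1.05) and 2.27-fold lower with GO than with rGO (-1.18). The gene pqn-89 was at 6.74, 7.74 and 7.82 and was 2.1-fold higher with rGO (+1.07), while its GO difference of 0.9999 fell just short of the limit. The gene pqn-25 was at 8.85, 8.61 and 9.83, with rGO just under the limit against the control (+0.98) and GO 2.33-fold below rGO (-1.22). These 3 were the counted members in which the rGO array was the highest.

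Of the lower pqn genes, pqn-54 had the largest difference. It was at 9.16 (control), 6.04 (GO) and 6.33 (rGO). The GO value was below background, so the fold is at least 7.58 (difference -3.12), and the rGO value was 7.11-fold lower than the control (-2.83). The gene pqn-22 was at 9.79, 7.84 and 7.83, or 3.87-fold lower with GO (-1.95) and 3.90-fold lower with rGO (-1.96). The gene pqn-24 was at 8.74, 7.45 and 7.50, or 2.44-fold and 2.37-fold lower (-1.29 and -1.24). In these 3 genes the exposed arrays lay within 0.29 of each other and the control array stood apart. The gene pqn-31 differed from them, at 9.95, 8.32 and 9.60, with GO 3.10-fold lower than the control (-1.63) and 2.43-fold lower than rGO (-1.28), and rGO under 2-fold against the control (-0.35).

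**Figure D2:**
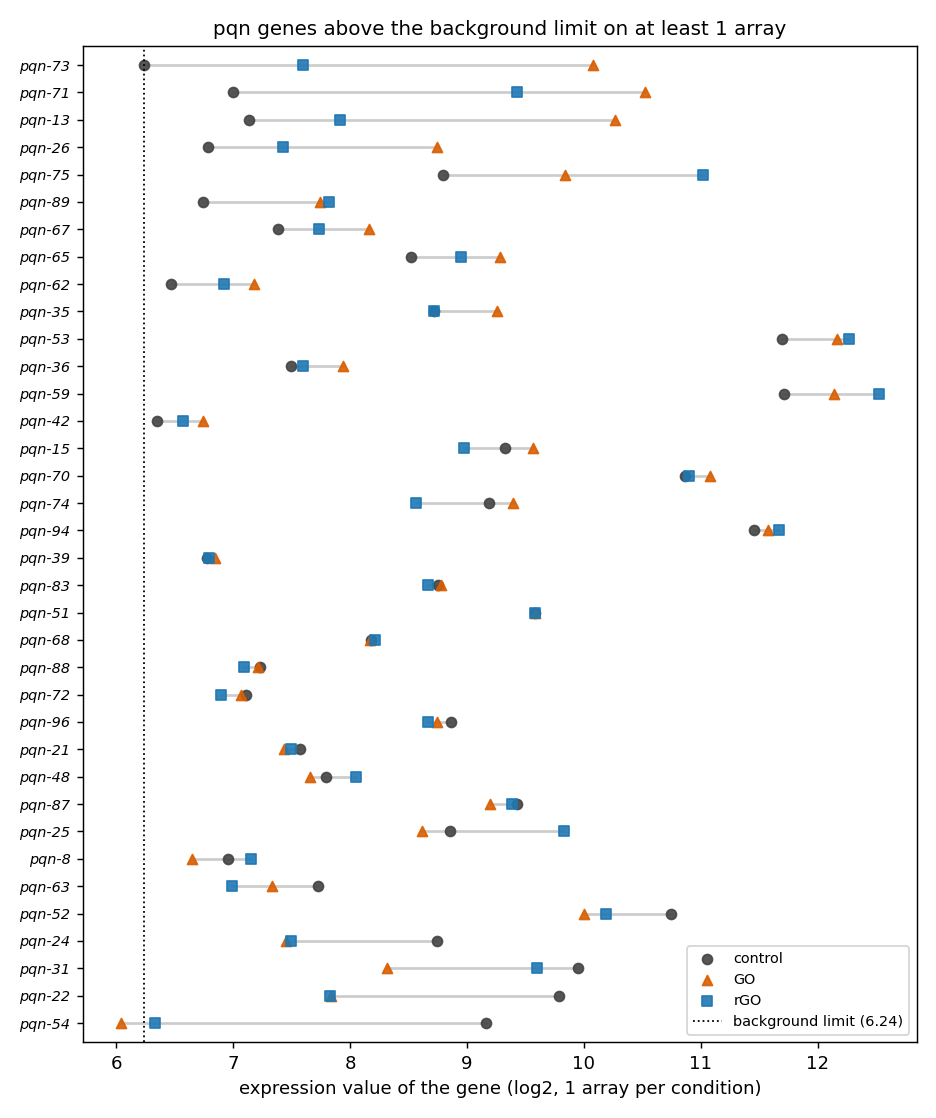
Log2 expression value (horizontal axis) of the 36 pqn genes above the background limit of 6.24 (dotted line) on at least 1 array, sorted from the highest to the lowest difference of GO against the control, with 1 array per condition. The widest spans belong to pqn-73, pqn-71 and pqn-13 at the top, with the control array low, and to pqn-54 at the bottom, with the control array high at 9.16.

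The GO and rGO values of single members can be set side by side, although both use the same control array. Of the 58 genes, pqn-71, pqn-73 and pqn-75 were counted as higher with both exposures and pqn-22, pqn-24 and pqn-54 as lower with both. Higher with GO alone were 5 (abu-12, abu-13, abu-14, pqn-13 and pqn-26), and lower with GO alone was pqn-31. Higher with rGO alone was pqn-89, and lower with rGO alone were 3 (abu-6, abu-11 and abu-15). None was counted in opposite directions. In all, 17 members were counted in at least 1 comparison, 6 abu and 11 pqn. This was 39.5% of the 43 members above the floor in at least 1 comparison. Among the 9454 genes above the floor in at least 1 comparison, 2.82% were counted as higher and 7.57% as lower with both, 5.43% as higher and 2.03% as lower with GO alone, 4.87% as higher and 1.89% as lower with rGO alone, 4 genes in opposite directions and 25.9% in any comparison. Of the 12 members counted for GO against control, 4 are read only by probe sets with shared probes, as are 6 of the 10 counted for rGO and 3 of the 9 counted between the exposures. Between GO and rGO, 6 of the 42 members above the floor were higher with GO and 3 with rGO, beside 5.59% and 3.73% of all genes above the floor.

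**Figure D3:**
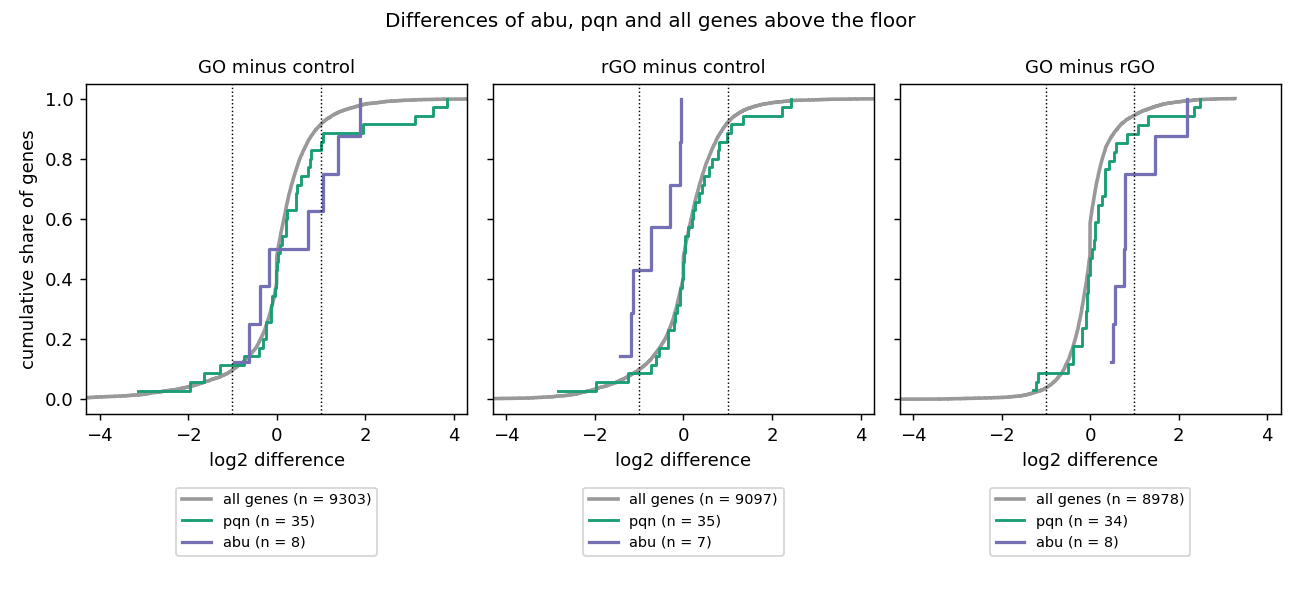
Cumulative share of genes (vertical axis) against the log2 difference (horizontal axis) for all genes, pqn genes and abu genes above the floor in each of the 3 comparisons, with dotted lines at the counted difference of 1 in either direction; the most extreme of all genes lie outside the axis. The pqn curve lies close to the curve of all genes at 0 in the 2 panels against the control. In the panel of GO minus rGO, 19 of 34 pqn genes lie above 0, beside 41.5% of all genes. The 8 abu genes lie at +0.47 or more in the panel of GO minus rGO, and the 7 abu genes lie below 0 in the panel of rGO minus control. The gene abu-12 (+0.25) was under the floor in that last comparison and is not drawn there.

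A further 27 members, abu-8, abu-10 and 25 pqn genes, were above background on at least 1 array and counted in no comparison. Their differences ranged from -0.74 to 0.77 for GO and from -0.73 to 0.81 for rGO against the control, and from -0.50 to 0.83 for GO against rGO. The gene pqn-59 encodes the worm homologue of the mammalian RNA-binding protein UBAP2L and takes part in stress granules. It was at 11.71 on the control, 12.14 on the GO and 12.52 on the rGO array (+0.44 and +0.81), but its probe sets differed by up to 1.03 in a comparison. The genes pqn-53 (11.70, 12.17 and 12.27), pqn-94 (11.46, 11.58 and 11.67) and pqn-70 (10.87, 11.08 and 10.90) were under 1.5-fold in each comparison with the control. The gene pqn-74 kept the order of the abu genes, at 9.19, 9.40 and 8.57, with GO 1.78-fold above rGO (+0.83). The gene pqn-51 was at 9.58 on all 3 arrays.

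Averages over probe sets hid disagreement in 4 members, where the probe sets of a gene differed by more than 1 unit in at least 1 comparison. For pqn-52 the GO differences of its 3 probe sets were -2.15, -0.09 and 0.00, which averaged to -0.74. For pqn-41, whose transcript with a polyglutamine-coding stretch acts in the death of the linker cell of the male gonad, 3 of 4 probe sets were below background and the brightest gave +0.64 with GO and +0.63 with rGO. The other 2 such members were pqn-36 and pqn-59. The 14 members whose averages were below background on all 3 arrays, 3 abu and 11 pqn, had values between 4.27 and 6.15. Of these, 10 had no probe set above background on all arrays, so no difference could be read. The other 4, abu-4, pqn-18, pqn-27 and pqn-41, had 1 such probe set each, which was at 6.78 on every array for pqn-18 and at 7.79 (control), 7.47 (GO) and 7.99 (rGO) for pqn-27.

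Other genes of the pharynx and of cuticle renewal were set beside the members. Of 12 measured genes of the pharyngeal cuticle and lining outside the abu and pqn names, the 10 above the floor had a median of 0.20 for GO against control. The 8 above it for rGO against control had a median of -0.65, and of these idpb-2, idpp-1 and nas-7 reached it through the control array alone. Over all 12 genes with no floor the medians were 0.32 for GO and -0.49 for rGO. For GO against rGO the median was 0.77 over 10 genes and 0.79 over all 12, beside 0.78 for the 8 abu genes above the floor, of which abu-10 and abu-12 reached it in that comparison through the GO array alone. The metalloprotease gene nas-7 was at 7.35 on the control, 8.76 on the GO and 6.69 on the rGO array, a 4.20-fold difference between the exposures (+2.07). The gene idpa-1, named for an intrinsically disordered protein of this cuticle, was at 8.20, 8.09 and 7.23, and idpc-2 at 9.35, 9.68 and 8.88. In both, rGO was the lowest array, as it was by the gene average for the 7 abu genes above background on all 3 arrays. The highest array was the control for idpa-1, as for abu-6, abu-10, abu-11 and abu-15. It was GO for idpc-2, as for abu-8, abu-13 and abu-14.

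**Figure D4:**
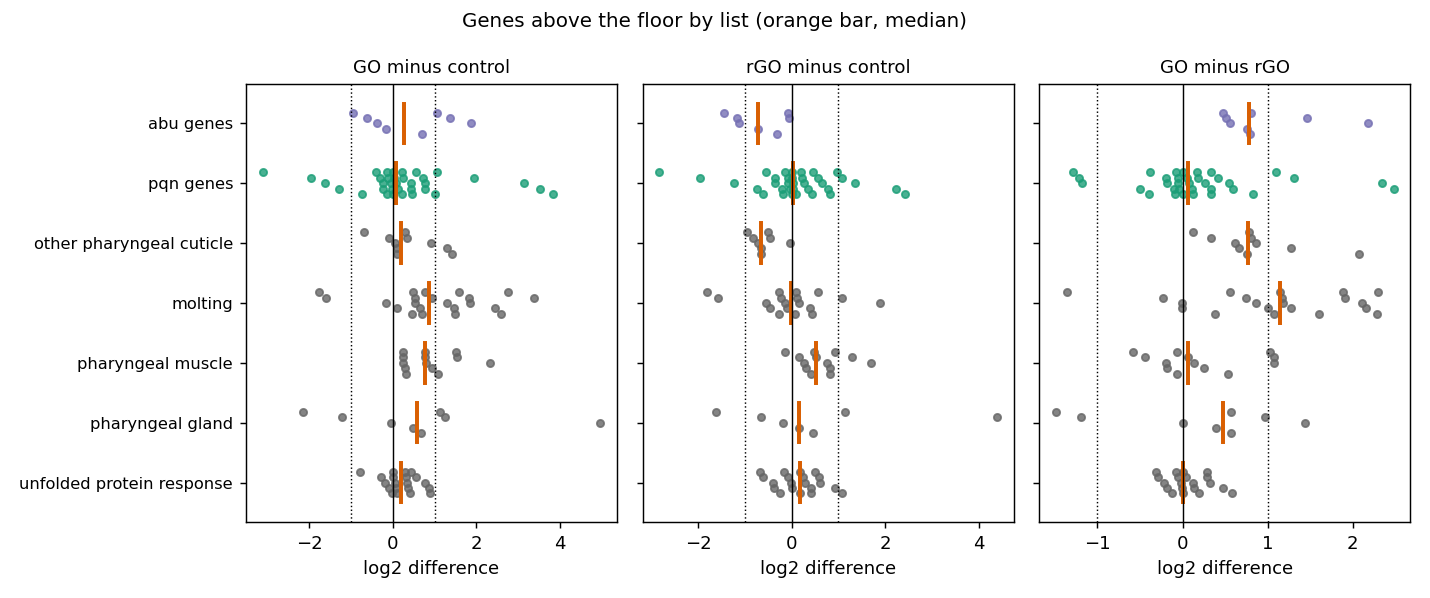
Log2 difference (horizontal axis) of each gene above the floor in the abu and pqn sets and in 5 other lists, in the 3 comparisons. Orange bars are medians, the solid line marks 0 and dotted lines mark the counted difference of 1. For GO minus rGO the medians of the abu genes (0.78), the other pharyngeal cuticle genes (0.77) and the molting genes (1.14) lie to the right of 0, and that of the unfolded protein response genes (0.004) lies at 0.

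Molting genes direct or carry out the exchange of the cuticle. With GO against the control, 10 of 22 were counted as higher and 2 as lower, beside 8.43% and 9.76% of all genes above the floor. The median for GO against the control was 0.86, and 0.67 over all 26 measured genes with no floor. With rGO, 2 of 18 were higher and 2 lower, beside 7.99% and 9.88%. Between the exposures 13 of 21 were counted as higher with GO and 1 as lower, beside 5.59% and 3.73% of all genes above the floor. The median was 1.14, and 0.94 over all 26 measured genes. Of the genes counted as higher with GO than in the control, bed-3, fbn-1, mlt-11, nhr-25 and ptr-4 passed the floor through the GO array alone. The supported folds are at least 2.61 for bed-3, 1.91 for fbn-1 and 3.08 for ptr-4. Between the exposures, fbn-1, ptr-4 and qua-1 also passed it through the GO array alone. The patched-related gene ptr-4 (5.12 on the control, 7.86 on the GO and 5.57 on the rGO array) and the cuticle matrix gene noah-2 (7.32, 9.91 and 7.76) had their high value on the GO array, as abu-13 and abu-14 did. Of 13 pharyngeal muscle genes above the floor, 4 were counted as higher with GO and 2 with rGO, and none as lower. The shares higher among all genes above the floor were 8.43% and 7.99%. The muscle medians were 0.77 with GO and 0.52 with rGO, beside 0.03 over all genes above the floor in both comparisons. The muscle genes ceh-22, eat-2, peb-1, pha-4 and tbx-2 entered through the exposed arrays alone, with a control value under the floor. The GO differences of the 13 ran from +0.23 (eat-2) to +2.32 (ceh-22, from a control value below background). The regulator ceh-22, a homeobox gene of pharyngeal muscle, was at 5.55, 7.88 and 6.85, or at least 3.10-fold higher with GO and at least 1.52-fold with rGO. The median muscle difference between GO and rGO was 0.06, beside 0.78 for the abu genes. The part of pharyngeal muscle RNA in the abu and pqn values was not tested.

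Of 8 pharyngeal gland genes 3 were higher and 2 lower with GO, beside 8.43% and 9.76% of all genes above the floor. The gland gene phat-5 was high on both exposed arrays (6.30, 11.25 and 10.69), and phat-6 was, like pqn-75, highest with rGO (8.41, 8.35 and 9.55). None of the other gland genes on the list was highest with rGO. For the unfolded protein response, from which the abu genes took their name, none of 20 genes above the floor was counted with GO. With rGO the calnexin gene cnx-1 alone was (9.38, 10.13 and 10.44), beside 7.99% higher and 9.88% lower of all genes above the floor. The medians of the list were 0.20 with GO and 0.18 with rGO, beside 0.03 over all genes above the floor. Higher on both exposed arrays, but under 2-fold, were crt-1 (12.65, 13.51 and 13.57) and enpl-1 (10.19, 11.09 and 10.80). The transcription factor gene xbp-1 was at 10.57, 9.77 and 9.90, under 2-fold in each comparison. Among all genes above the floor in at least 1 comparison, 25.9% were counted in at least 1. None of the 7 genes above the floor on a list of reported regulators of abu and pqn expression was counted in any comparison. Among them the engulfment receptor gene ced-1 was at 8.72, 8.73 and 8.75 and the deacetylase gene sir-2.1 at 9.92, 10.10 and 10.07. Of 8 other genes for stress granule or RNA-binding proteins above the floor, only gtbp-1, the worm homologue of the mammalian stress granule protein G3BP, was counted, with rGO (9.86, 10.69 and 11.08), and it had the same order of arrays as pqn-59. Beside this count stands the same share of 25.9% of all genes.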

How the data were processed

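The deposited table holds log2 expression values per probe set, 1 column per array, for which the submitters' processing notes name GCOS, Affymetrix Expression Console and RMA with no version. The labels' protocols give 300 ng of total RNA as the input for amplification and biotin labelling. Of 22625 probe sets, 20766 carry 1 symbol in the platform annotation of 2016, and 20701 of these were matched to RefSeq (assembly WBcel235) by gene identifier. Probe sets with 1 symbol were averaged per gene with Python 3.11.15 and pandas 2.3.3, which gave 17118 genes. The 58 members have 93 probe sets, and 9 probe sets that list an abu or pqn symbol among several stayed out.

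A gene entered a comparison when the brighter array reached 6.79, and was counted from a log2 difference of 1 upwards in either direction, with no test. The precision is limited by 1 array per condition. The counting step was tested on simulated data. Named genes are every abu member, the 10 members with the largest difference in each comparison, the 5 brightest, 4 pqn genes of known role where measured, and up to 4 genes per other list. The genes ced-1, pqn-18, pqn-27, pqn-36, pqn-51 and pqn-52 were taken after their values were seen. So were some genes of other lists that are named for reaching the floor through the control or the exposed arrays alone. The members and lists were chosen with earlier results of these data known. The planned grouping by protein similarity and the search of promoters for motifs were not made, as no sequences were used here.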

Additional observations from a re-analysis of the deposited data

How the results depend on the processing

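The counts and medians of the 58 members and of the 11 abu genes were computed again under 7 alternatives; 99 of 120 values stayed within 1.5 times the count or within the spread between probe sets of a gene, and 21 moved. The alternatives for the abu genes alone were chosen after seeing the data. With a counted difference of 1.5, members higher were 5 (GO against control), 2 (rGO against control) and 3 (GO against rGO), members lower were 2 (rGO against control) and 0 (GO against rGO), and abu genes were 1 higher (GO against control), 0 lower (rGO against control) and 1 higher (GO against rGO). Without probe sets that share probes, 22 members remained measured above the floor, with 5 higher for GO and 2 higher and 2 lower for rGO against the control; 2 abu genes remained, 1 higher for GO against control (median 0.60), 0 lower for rGO and 1 higher for GO against rGO. With the floor at the 75th percentile, 2 members were higher with rGO, the median of the members for GO against rGO was 0.47 and the abu median for rGO against control was -1.13. With no filter on dim genes the abu medians were 0.00 (GO against control) and -0.31 (rGO against control), and with the mean of the 3 arrays at the floor the abu median for GO against control was -0.17. The brightest probe set per gene and a further quantile normalisation moved none of these values. No difference counted for a single named member changed direction or fell below the limit, and no other passed it, under the 4 alternatives run on single genes. For most counted members this was largely fixed in advance, because all except abu-14 and pqn-13 have 1 probe set. For a gene with 1 probe set, only the further quantile normalisation can change a difference that is still read. Of differences that were not counted, 5 of at most 0.17 changed sign: with the brightest probe set abu-10 (GO against control, to 0.30), abu-14 (rGO against control, to 0.22), pqn-41 (rGO against control, to 0.63) and pqn-53 (GO against rGO, to 0.07), and with a further quantile normalisation pqn-22 (GO against rGO, to -0.03). Members read only by shared-probe probe sets have no value under 1 of the 4. No paired analysis was possible because each condition has 1 array. The alternatives that group members by protein similarity or by cysteine share were not run. Values below 6.24 cannot be resolved, which leaves 10 of the 58 members without a probe set that can be read in any comparison.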

Other observations

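The 9 probe sets that list an abu or pqn symbol together with other symbols entered no comparison, and they cover 11 abu or pqn genes, 4 of them abu, that have no probe set of their own. They list 2 to 6 symbols each and share probes with other transcripts, so they are not separate measurements, and no floor was applied to them. All 9 were lower on the rGO array than on the control array (median -0.88, range -2.69 to -0.24), and 4 of them by a difference of at least 1. Of these 4, the probe set at 7.23 on the control array was below background on the rGO array (6.13), so its fold cannot be fully read. Of all genes above the floor, 40.2% were below 0 and 9.88% at least 2-fold lower in that comparison. On the GO array 8 of 9 were lower than on the control array (median -0.63), 3 by at least 2-fold, and 1 was higher (+0.47), beside 38.8% below 0 and 9.76% at least 2-fold lower among all genes. The lowest of them, which lists 2 genes that neighbour each other, was at 10.37 (control), 7.51 (GO) and 7.68 (rGO). Another that lists 2 neighbouring genes was at 9.11, 6.67 and 6.43. In both, as in pqn-54, the control array stood apart from the exposed arrays. Against rGO, 8 of 9 were higher with GO, by up to 0.81, beside 41.5% of all genes.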
